A study of Mus musculus with 8 samples.

Results

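The insulin-like growth factor (IGF) axis was followed in mammary gland through 10 genes: the ligand Igf1, its receptor Igf1r, the binding proteins Igfbp2 to Igfbp7, and the receptor substrates Irs1 and Irs2. They were chosen by name, with earlier results of these data known. All probe sets annotated to these symbols were used, which gave 26 of the 45037 probe sets on the arrays that are not controls. RNA came from inguinal mammary tissue of virgin mice aged 12 to 13 weeks. All mice, the controls included, had been gonadectomized (GDX), which removes the gonads as a source of sex steroids. There were 2 arrays of mice given vehicle, both titled 24 h, and 6 arrays of mice injected subcutaneously with 17β-estradiol (E2), with 1 array for each time, which by their titles was 1, 3 or 6 h (early) or 12, 18 or 24 h (late) before necropsy. The sample descriptions read 24 h throughout, a conflict that was not resolved here. Tissue was gathered from all mice of a group, but the number of mice behind an array and whether RNA was pooled are not given in the sources used here. The p-values therefore measure only how far these arrays differ, and part of that may be technical. For the times from 1 to 18 h, E2 cannot be told apart from the injection or the time of day, since no vehicle array was titled with those times.

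IGF1 is a secreted growth factor that acts through the receptor tyrosine kinase IGF1R. The activated receptor phosphorylates the docking proteins IRS1 and IRS2, which recruit phosphatidylinositol 3-kinase and so switch on AKT. Secreted IGF binding proteins hold the ligand in the tissue or keep it from the receptor, and proteases release it again. In the mammary gland, IGF1 made by the stroma under growth hormone is known to be needed, together with estrogen, for the growth of the ducts.

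Array medians lay between 173.9 and 180.49 intensity units, and log2 differences between the vehicle arrays had an SD of 0.138 over the 27022 tested probe sets, those with a mean intensity of at least 125.0. Of 6 tested genes known to respond to estrogen, 3 lay above and 3 below vehicle in the early window. There 0 were called (limma, with 2 at an unadjusted p below 0.05). In that fit the arrays of a window stood as replicates, so change between its hours counted as spread. At 3 h, Pgr, the progesterone receptor gene, was 5.40-fold above the vehicle mean and Krt4, an epithelial keratin gene, 10.6-fold. Esr1, the estrogen receptor gene, read 770 units at 6 h against 1551 and 1505 in vehicle, and Wnt4 was at 0.87-fold at 3 and 6 h. Of the 6 genes, 3 (Pgr, Krt4 and Esr1) lay 1.5-fold from both vehicle arrays at some time, where 1.44% of all genes did. Markers of tissue composition also moved. The mean of 21 skeletal muscle genes stood 0.20 above the vehicle mean in vehicle 1 and at 0.69, 0.56, 1.27, 0.20, 0.71 and 0.99 on the 6 E2 arrays in order of time, on the log2 scale. Beside the results for Igf1, Igfbp3, Igfbp5, Igfbp6 and Irs1 stand their values with the mean of these muscle genes as a covariate. All 6 E2 arrays lay at or above vehicle 1 in this mean, so the covariate and E2 cannot be fully told apart. Values with it may therefore leave out part of an E2 difference. Fibroblast markers (10 genes) stayed between -0.13 and 0.10 and adipocyte markers (12 genes) between -0.09 and 0.07. Macrophage markers (10 genes) stayed between -0.16 and 0.12. Fibroblast and macrophage markers were both lowest at 12 h. B lymphocyte markers (11 genes) stood at -0.40 at 18 h and -0.38 at 24 h, T lymphocyte markers (10 genes) at -0.35 at 18 h, and luminal epithelial markers (13 genes) at -0.42 at 3 h and 0.31 at 12 h. Myoepithelial markers (8 genes) stood above both vehicle arrays on all 6 E2 arrays, by 0.10 to 0.22 from the vehicle mean. Brown fat markers (6 genes) stood 0.03 to 0.38 above the vehicle mean, but vehicle 1 exceeded vehicle 2 by 0.40 there. Their 1 and 24 h arrays lay below vehicle 1. In tissue RNA, fewer cells of a type and less RNA per cell cannot be told apart.

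**Figure D1:**
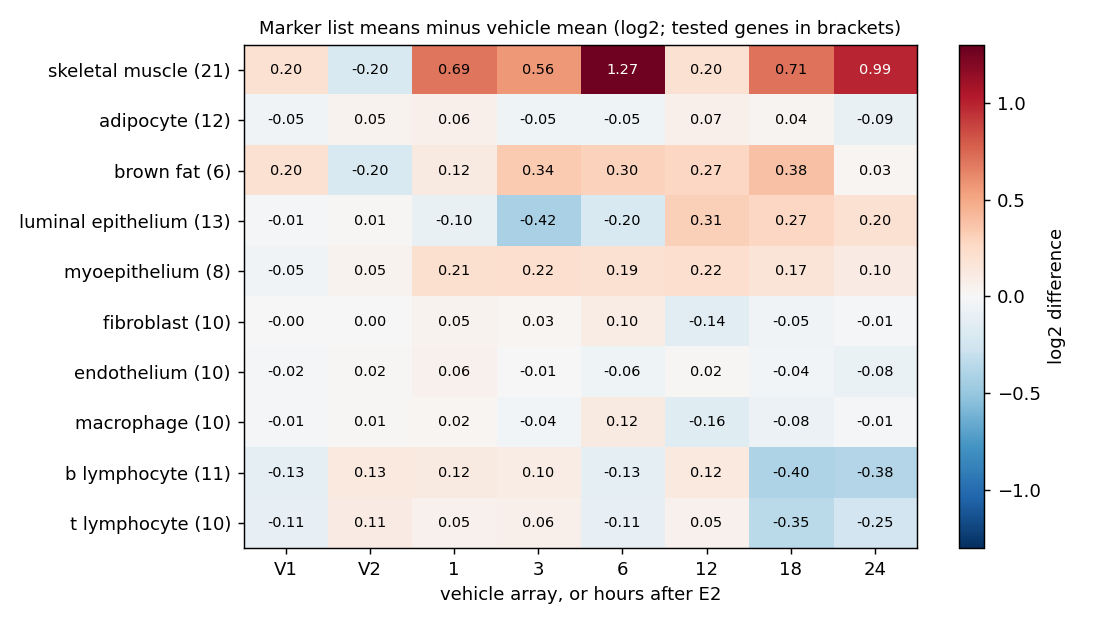
Mean log2 level of each marker list (rows, with the number of tested genes in brackets) on each array (columns: vehicle 1, vehicle 2, then hours after E2), as the difference from the vehicle mean. Skeletal muscle reached 1.27 at 6 h and stood at 0.20 both in vehicle 1 and at 12 h, while fibroblast markers stayed between -0.13 and 0.10.

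Across the axis, Igf1, Igfbp3 and Igfbp5 lay lower than both vehicle arrays and Igfbp6 higher from 6 h on, but not at 1 h, Irs1 was high from 1 to 6 h, and Igf1r, Igfbp4, Igfbp7 and Irs2 stayed near vehicle. The differences were modest, the largest being an Igfbp3 intensity of 63.7% of the vehicle mean at 18 h and an Igfbp6 intensity of 148.8% at 6 h. No member passed the test across all probe sets, in which change between the hours of a window counted as spread. Of the 26 probe sets 25 passed the filter on low values, and Igfbp2 did not.

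**Figure D2:**
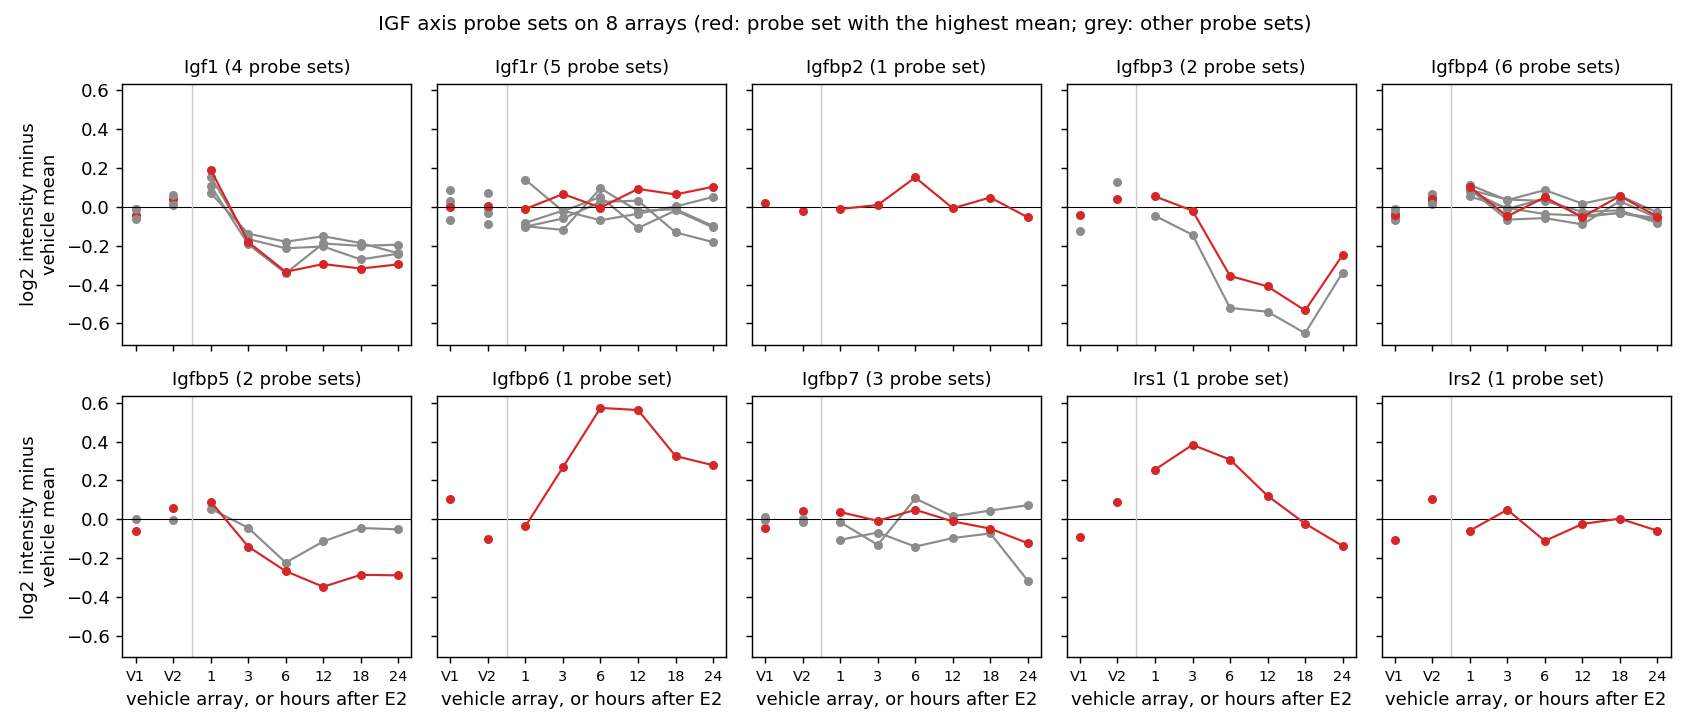
Log2 intensity minus the mean of the vehicle arrays (vertical axis) for each probe set of the 10 genes on vehicle 1 and 2 (V1, V2) and at each time after E2 (horizontal axis, hours, evenly spaced). Red marks the probe set with the highest mean of each gene and grey the others: the 4 Igf1 probe sets all lay above 0 at 1 h and below it from 3 h on, Igfbp6 stood highest at 6 h, and Irs1 at 3 h.

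Igf1, the ligand, was slightly higher than both vehicle arrays at 1 h and lower than both at each later time, on all 4 of its probe sets. On probe set 1434413_at, the brightest, intensities were 4063 and 4292 in vehicle and 4772, 3684, 3313, 3406, 3351 and 3402 on the E2 arrays in order of time. The 5 arrays from 3 h on lay below both vehicle arrays, and the lowest, at 6 h, stood at 79.3% of the vehicle mean. The other Igf1 probe sets ran in parallel: over the 4 probe sets the log2 differences from the vehicle mean were 0.07 to 0.19 at 1 h, -0.19 to -0.14 at 3 h, -0.34 to -0.18 at 6 h and -0.30 to -0.19 at 24 h. Pairs of Igf1 probe sets had Pearson r between 0.90 and 0.98 over the 8 arrays, a description of probe sets that read the same RNA and are not replicates.

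Against vehicle, the late window (12, 18 and 24 h) placed 1434413_at at -0.30 ± 0.119 (SE, n = 3 against 2; limma adjusted p = 0.628), and the other probe sets between -0.24 and -0.19. Over the early window (1, 3 and 6 h), which joins the high 1 h array to the lower 3 and 6 h arrays, Igf1 stood between -0.14 and -0.07. For 1434413_at the early difference was 0.0059 without the 6 h array and -0.26 without the 1 h array. At 12 h the muscle markers matched vehicle 1, but luminal, myoepithelial, lymphocyte, adipocyte, fibroblast and macrophage markers did not. There 1434413_at lay at -0.25 against vehicle 1 and -0.33 against vehicle 2. With the mean of the muscle genes as a covariate its late difference was -0.17 ± 0.145.

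Sequence upstream of the gene is shown for Igf1 and Igfbp6, which had opposite courses. Igfbp3 and Igfbp5 also ran opposite to Igfbp6 and are not shown. Each window is the 250 bases before a start annotated by RefSeq in build GRCm38.p6, read 5′ to 3′ on the gene's strand. Capitals mark motifs searched on both strands: GGTCA, a single arm of an estrogen response element, and TGANTCA, a loose pattern for the AP-1 site. In it N is any base, so that not every match is an AP-1 site. The Igf1 window is chr10:87860861-87861110 (+) and the Igfbp6 window chr15:102143936-102144185 (+).
Igf1: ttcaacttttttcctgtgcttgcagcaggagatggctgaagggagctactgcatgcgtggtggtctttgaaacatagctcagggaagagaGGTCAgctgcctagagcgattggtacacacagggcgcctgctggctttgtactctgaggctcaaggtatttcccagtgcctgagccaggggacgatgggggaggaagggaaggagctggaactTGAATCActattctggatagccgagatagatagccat
Igfbp6: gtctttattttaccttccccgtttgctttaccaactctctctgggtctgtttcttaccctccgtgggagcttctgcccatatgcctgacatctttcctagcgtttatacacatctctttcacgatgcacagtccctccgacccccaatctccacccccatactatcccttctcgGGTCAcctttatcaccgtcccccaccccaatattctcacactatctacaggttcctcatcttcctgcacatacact
The Igf1 window held GGTCA starting 160 bases before the start and TGAATCA 37 bases before it, and the Igfbp6 window held GGTCA 76 bases before it. GGTCA was in 5 of the 11 member windows and in 35.2% of all 32851 windows of this length, and TGANTCA in 2 of 11 and 6.75%. Windows with GGTCA were those of Igf1, Igf1r, Igfbp2, Igfbp6 and Igfbp7, and no window of Igfbp3, Igfbp4, Igfbp5, Irs1 or Irs2 held it. TGANTCA was in windows of Igf1 and Igfbp2. The full estrogen response element, GGTCA and its reverse complement with 3 bases between them (0.0639% of all windows), and the forkhead site GTAAACA (3.17%) were in 0 of 11. These matches describe letters in the windows and were not tied to the measurements.

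Igf1r, the receptor, stayed close to vehicle. On its brightest probe set, 1452982_at, intensities were 1184 and 1188 in vehicle and 1177, 1242, 1183, 1264, 1240 and 1274 over the E2 times, all within 7.46% of the vehicle mean. The 3 late arrays lay above both vehicle arrays there, by 0.06 to 0.10 on the log2 scale. The other 4 Igf1r probe sets were dim, between 139.8 and 291 units on all arrays, and shared no common course: pairs of Igf1r probe sets had Pearson r from -0.76 to 0.55 over the 8 arrays.

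Among the binding proteins, Igfbp3, the main carrier of IGFs in blood, had the deepest trough. On probe set 1423062_at, intensities were 1087 and 1294 in vehicle and 1149, 1074, 827, 816, 756 and 938 at the E2 times. On 1458268_s_at they were 1238 and 1312 in vehicle and 1323, 1258, 996, 960, 881 and 1074. Both probe sets lay below both vehicle arrays from 6 h to 24 h, were lowest at 18 h, at 63.7% and 69.1% of the vehicle mean, and stood closer to vehicle at 24 h than at 18 h.

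The late window placed Igfbp3 at -0.51 ± 0.137 and -0.40 ± 0.116 against vehicle (SE, n = 3 against 2; limma adjusted p = 0.628 for both). Late arrays lay below early arrays by -0.27 ± 0.123 and -0.29 ± 0.104 (adjusted p = 0.311 and 0.237, limma). At 12 h the probe sets lay at -0.41 and -0.37 against vehicle 1. Muscle markers were level with vehicle 1 there, but luminal, myoepithelial, lymphocyte, adipocyte, fibroblast and macrophage markers were not. With the mean of the muscle genes as a covariate the late differences were -0.36 ± 0.167 and -0.28 ± 0.143.

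Igfbp5, which binds matrix as well as IGFs and is known from the involuting mammary gland, lay above both vehicle arrays at 1 h and below both from 3 h on, on both probe sets but to different depths. On 1452114_s_at, intensities were 4718 and 5114 in vehicle and 5233, 4456, 4082, 3860, 4029 and 4022 at the E2 times. This probe set stood at 78.6% of the vehicle mean at 12 h. On 1422313_a_at the corresponding values were 4286 and 4275 in vehicle and 4446, 4152, 3668, 3955, 4150 and 4130. Its lowest value was at 6 h, at 85.7% of the vehicle mean, and at 18 and 24 h it stood at 96.9% and 96.5%.

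The late difference was -0.31 ± 0.0902 for 1452114_s_at (SE, n = 3 against 2; limma adjusted p = 0.628) and -0.07 ± 0.0741 for 1422313_a_at (adjusted p = 0.788, limma). The probe sets thus disagreed on the size of the late difference. With the muscle covariate the late differences were -0.23 ± 0.113 and -0.012 ± 0.0927, and the early ones, -0.11 and -0.07 without it, were 0.00091 and 0.0072. By the array's naming, probe sets ending in _s_at can match several transcripts, which limits 1452114_s_at and 1458268_s_at.

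Igfbp6, a binding protein that prefers IGF2 to IGF1, lay above both vehicle arrays from 3 h on. Its single probe set, 1417933_at, read 2493 and 2163 in vehicle and 2266, 2796, 3456, 3429, 2910 and 2816 at the E2 times. The 1 h array lay between the vehicle arrays, and the later arrays reached 148.8% of the vehicle mean at 6 h and 147.7% at 12 h.

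The early window placed Igfbp6 at 0.27 ± 0.15 and the late window at 0.39 ± 0.15 against vehicle (SE, n = 3 against 2; limma adjusted p = 0.971 and 0.628). Vehicle 1 exceeded vehicle 2 by 0.20, and the late difference was 0.29 without vehicle 2 and 0.49 without vehicle 1. The early difference was 0.12 without the 6 h array, 0.17 without vehicle 2 and 0.42 without the 1 h array. With the muscle covariate the early difference was 0.15 ± 0.224 and the late 0.30 ± 0.195. At 12 h Igfbp6 lay at 0.46 against vehicle 1 and 0.67 against vehicle 2. Muscle markers matched vehicle 1 there, but luminal, myoepithelial, lymphocyte, adipocyte, fibroblast and macrophage markers did not.

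Igfbp4, an inhibitory binding protein cut by the protease PAPP-A, was flat. Its 6 probe sets lay between -0.09 and 0.11 of the vehicle mean at all times, and the early and late window differences of none passed the test. Igfbp7, a relative that binds IGFs with low affinity, was as flat on its brightest probe set, 1423584_at, with 8402 and 8926 units in vehicle and 7952 to 8958 over the E2 times. On the dim probe set 1423585_at the 24 h array stood apart at 251 units, against 315 and 309 in vehicle, and it was also the lowest of the 8 on 1423584_at but not on 1437804_at. Igfbp2 read between 95.3 and 109.8 units on the 8 arrays, below the filter, and was not tested.

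Irs1, the substrate that couples the receptor to phosphatidylinositol 3-kinase, was highest on the 3 early arrays. Probe set 1423104_at read 2042 and 2314 in vehicle and 2595, 2835, 2689, 2364, 2140 and 1976 at the E2 times. The 1, 3 and 6 h arrays lay above both vehicle arrays, with 130.4% of the vehicle mean at 3 h, the 12 h array lay just above both, the 18 h array between them, and the 24 h array below both.

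Irs1 stood at 0.32 ± 0.082 over the early window (SE, n = 3 against 2; limma adjusted p = 0.578) and at -0.01 ± 0.082 over the late window (adjusted p = 0.973, limma). With the muscle covariate the early difference was 0.50 ± 0.0932 (limma adjusted p = 0.159) and the late 0.13 ± 0.0813. Late arrays lay -0.33 ± 0.0733 from early arrays, with no overlap between the groups (SE, n = 3 against 3; limma adjusted p = 0.0961), short of the threshold. The adjusted p was 0.0164 with the muscle gene mean as a covariate, at -0.37 ± 0.0582, and between 0.0663 and 0.367 with any single array left out. With the muscle covariate, 1450 of all 27022 tested probe sets passed between late and early arrays, against 84 without it. Among the 25 member probe sets 1 did, that of Irs1, so its call is no trait particular to it. Irs2, the other substrate, read between 226 and 263 units on all arrays, with the vehicle arrays at 227 and 263. The E2 arrays thus lay within the vehicle range except the 6 h array, just below it at 226.

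**Figure D3:**
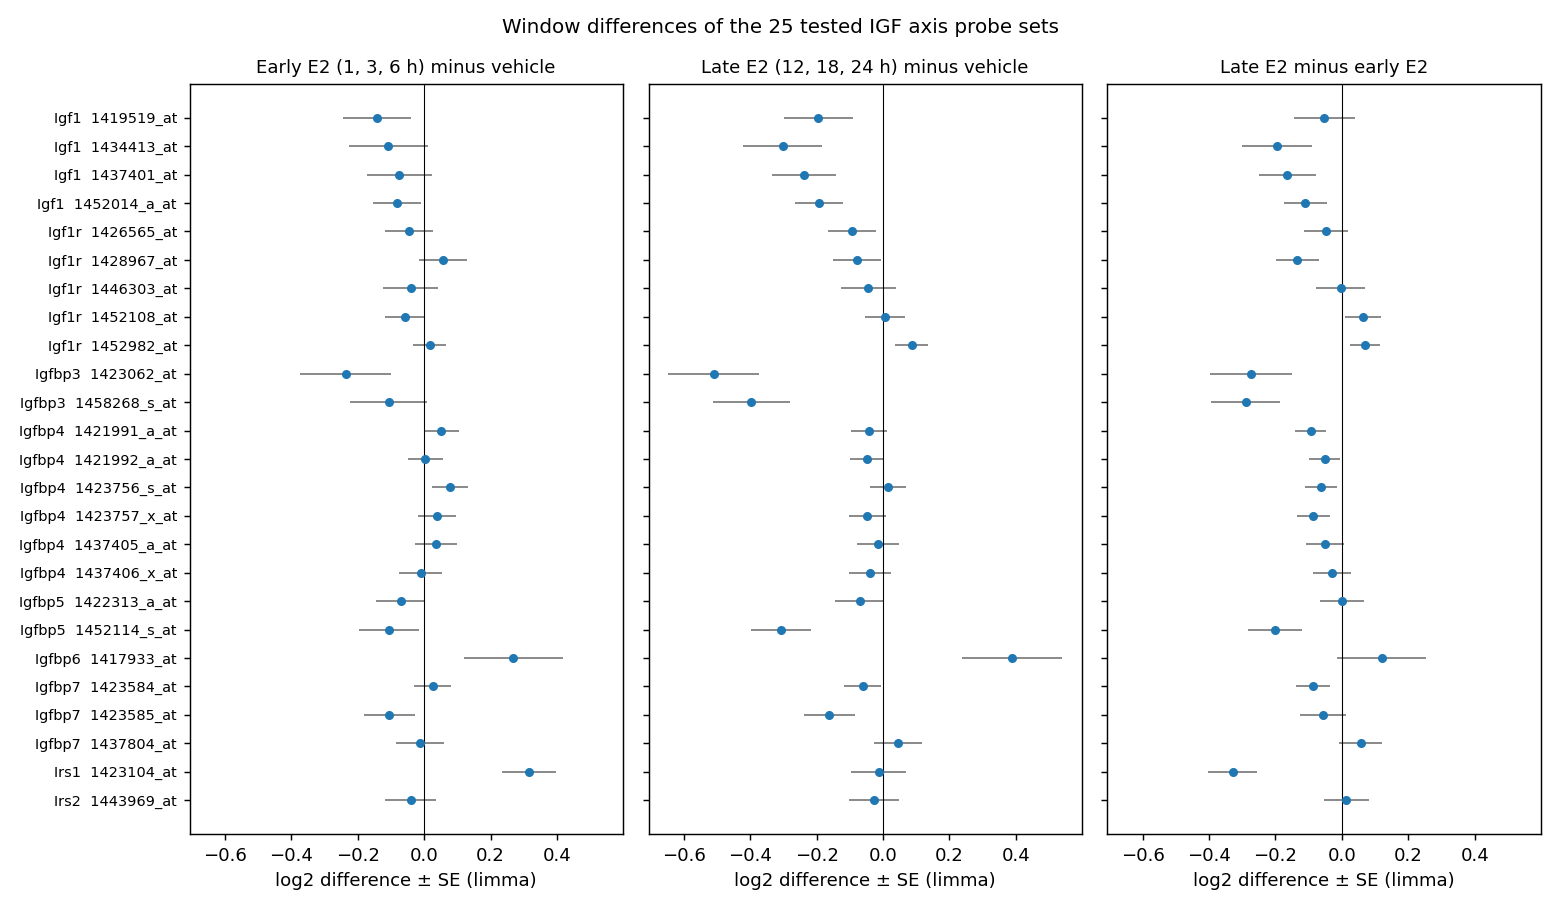
Limma log2 differences (points) with their standard errors (bars) for the 25 tested probe sets, for early E2 minus vehicle, late E2 minus vehicle and late minus early E2. Igfbp3 at -0.51 and -0.40 and Igfbp6 at 0.39 lay farthest from 0 in the late window, and Irs1, at 0.32 early and -0.33 late against early, in the others.

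As a group, the members were read against what all probe sets did. Members and windows were chosen with earlier results of these data known, so these shares describe the group and are no test of it. In limma, 0 of 25 member probe sets passed at an adjusted p below 0.05 in the early window, where 0.0037% of all tested probe sets did, 0 of 25 in the late window (0% of all) and 0 of 25 between late and early arrays (0.311% of all). At an unadjusted p below 0.05, the late window held 6 lower member probe sets of Igf1, Igfbp3 and Igfbp5, or 24.0% against 5.01% of all, and 1 higher, of Igfbp6, or 4.0% against 2.68%. In the early window there was 1 higher, of Irs1 (4.0% against 3.06%), and 0 lower (2.19% of all). Between late and early arrays 4 were lower, of Igfbp3, Igfbp5 and Irs1 (16.0% against 10.6%), and 0 higher (5.53% of all).

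The 6 lower probe sets of the late window come from 3 genes and are not independent. Their number was 3 with 1 probe set a gene, 3 with the lymphocyte marker mean as a covariate and 0 with the muscle gene mean as a covariate. Without vehicle 2 it was 1, and without the 24 h array 3. The early arrays lay wholly above vehicle for 1 of 25 member probe sets, that of Irs1 (4.0% against 11.7% of all), and wholly below for 1, of Igfbp7 (4.0% against 7.36%). The late arrays lay wholly below vehicle for 9 of 25 member probe sets (36.0% against 13.2% of all), from the 4 genes Igf1, Igfbp3, Igfbp5 and Igfbp7. The same arrays lay wholly above for 3 (12.0% against 11.3%), of Igf1r, Igfbp6 and Igfbp7, so that Igfbp7 probe sets went both ways. Late arrays lay wholly below the early arrays for 5 (20.0% against 12.1%), of Igfbp4, Igfbp5, Igfbp7 and Irs1, and above them for 0 (9.19% of all). The arrays from 3 to 24 h, a grouping chosen after the values were seen, lay wholly below vehicle for 8 (32.0% against 4.43%). These too came from Igf1, Igfbp3, Igfbp5 and Igfbp7, and probe sets of the same gene are not independent. Wholly above was 1, that of Igfbp6 (4.0% against 4.31%).

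At single times, where 1 array allows no replicate check, 0 member probe sets were 1.5-fold from both vehicle arrays at any time. Of all probe sets, in order of time, 0.192%, 0.414%, 0.385%, 0.118%, 0.107% and 0.115% were higher by that measure and 0.0222%, 0.196%, 0.148%, 0.0481%, 0.0333% and 0.0481% lower. At a smaller distance, where the higher of the compared values exceeded the lower by at least 25%, Igfbp6 was higher at 6 h (1.09% of all probe sets) and 12 h (0.307%). Lower by it were Igf1 probe set 1419519_at and Igfbp3 probe set 1423062_at at 6 h (0.94% of all), and both Igfbp3 probe sets at 12 h (0.618%) and 18 h (0.581%). No member reached it at 1 h (0.577% of all higher, 0.326% lower), 3 h (1.36% and 0.751%) or 24 h (0.315% and 1.07%), nor was any higher at 18 h (0.303%). A limma fit with 7 group means, which assumes that a lone array varies as the vehicle arrays do, called 0 of 25 member probe sets at any time at an adjusted p below 0.05, against 0.0629%, 0.581%, 0.385%, 0.0518%, 0.0111% and 0% of all in order of time. At an unadjusted p below 0.05 it held 1, 2, 8, 5, 7 and 8 of the 25 member probe sets, against 3.26%, 5.44%, 7.25%, 3.86%, 5.23% and 7.26% of all. These were probe sets of Igf1, Igfbp3, Igfbp5, Igfbp6, Igfbp7 and Irs1, some of the same gene and so not independent. The fit left 1 residual degree of freedom.

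The other genes of the pathway were described by 1 probe set a gene. For each list, passing refers to the fit of vehicle, early and late windows, not to single times. Of the 9 tested ligands, receptors and carriers beside the members, 0 passed in any comparison (limma; 1 at an unadjusted p below 0.05 in each, where 5.27% of all genes were so early, 7.2% late and 17.2% between late and early), 4 lay above and 5 below vehicle early and 7 and 2 late, and their median differences were -0.00086 early and 0.03 late, against 0.01 and -0.00093 over 13281 genes. Insrr, an insulin receptor relative, lay at 0.21 early and 0.28 late. Igf2 lay at 0.04 and 0.09, and Ghr, the growth hormone receptor gene upstream of Igf1, at -0.08 and 0.03. Igfals, the subunit that joins the circulating Igfbp3 complex, was at -0.24 early, with -0.33 at 3 h and -0.40 at 6 h.

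Among 13 tested IGFBP proteases and their inhibitors, 1 gene passed between late and early arrays and 0 in either window against vehicle (limma). At an unadjusted p below 0.05 (limma) there were 2 early, 1 late and 6 between late and early. The shares of all genes were the same 5.27%, 7.2% and 17.2%. By distance, 1 of the 13, Adamts1, lay 1.5-fold from both vehicle arrays at some time, against 1.44% of all genes. Adamts1, a secreted metalloprotease, read 790 and 730 in vehicle and 1154, 1678, 1147, 805, 767 and 753 at the E2 times. It was 2.21-fold above the vehicle mean at 3 h and fell from the early to the late arrays by 0.75 ± 0.123 (SE, n = 3 against 3; limma adjusted p = 0.0418). The call ended without the 12, 18 or 24 h array or without either vehicle array, with adjusted p up to 0.209, and also with quantile normalization (0.0646), probe set means (0.0658), no variance trend (0.0519), robust fitting (0.0843) and the lymphocyte covariate (0.12). Timp3, an inhibitor of metalloproteases, lay at 0.21 early and -0.12 late, and the PAPP-A inhibitors Stc1 and Stc2 at 0.18 and -0.18 early.

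Of 16 tested adaptors and brakes of the receptor, Socs2 passed between late and early arrays and 0 in either window against vehicle (limma). At an unadjusted p below 0.05 (limma) there were 6 early, 2 late and 8 between late and early. The shares of all genes were 5.27%, 7.2% and 17.2%. By distance, 1 of the 16, Socs3, lay 1.5-fold from both vehicle arrays at some time, against 1.44% of all genes. SOCS2 is a feedback inhibitor of growth hormone signalling, through which Igf1 is made. Its gene read 501 and 629 in vehicle and 770, 900, 742, 489, 414 and 389 at the E2 times, above both vehicle arrays at 1, 3 and 6 h and below both from 12 h on. Socs2 fell from early to late arrays by 0.90 ± 0.109 (SE, n = 3 against 3; limma adjusted p = 0.0337), a call that ended without the 3, 12, 18 or 24 h array (adjusted p up to 0.204). With the probe sets of Socs2 averaged the difference was -0.50.

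The other brakes differed in timing. Socs3, a feedback inhibitor of cytokine receptors, was 2.13-fold above the vehicle mean at 1 h, with 2971 units against 1434 and 1361, and lay at 0.61 early and -0.22 late. Cish, a relative in the same family, was at 0.07 and -0.24, and Grb7, an adaptor, at -0.27 and 0.07. None of these passed in either window.

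In the pathway from phosphatidylinositol 3-kinase through AKT to mTOR, 0 of 23 tested genes passed in any comparison (limma; at an unadjusted p below 0.05, 1 early, 1 late and 6 between late and early, against 5.27%, 7.2% and 17.2% of all genes) and 0 lay 1.5-fold from both vehicle arrays at any time, against 1.44% of all genes. Pik3r1, the regulatory subunit that IRS proteins bind, lay at -0.01 early and -0.24 late, Trib3, an AKT inhibitor, at 0.28 and 0.06, and Inppl1, a lipid phosphatase, at 0.18 and -0.12. Early, 13 genes lay above and 10 below vehicle, and late 8 and 15, with medians of 0.02 and -0.04.

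Of 17 tested FOXO factors and genes linked to FOXO, which AKT holds out of the nucleus, 0 passed in any window comparison (limma). At an unadjusted p below 0.05 (limma) there were 6 early, 2 late and 6 between late and early. The shares of all genes were 5.27%, 7.2% and 17.2%. At some time 2 genes lay 1.5-fold above both vehicle arrays, where 1.44% of all genes lay that far in either direction. Gadd45a, a stress response gene, was 1.67-fold above the vehicle mean at 3 h. Pdk4, an inhibitor of glucose oxidation, read 766 and 1077 in vehicle, 1771 at 3 h and 807 at 24 h. Cited2 read 1371 and 1896 in vehicle and between 1195 and 1369 on the E2 arrays, with the 12 h array level with vehicle 1. Its differences from the vehicle mean, -0.37 early and -0.31 late, are limited by the wide gap between the vehicle arrays. Median differences of the list were -0.06 early and -0.06 late.

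**Figure D4:**
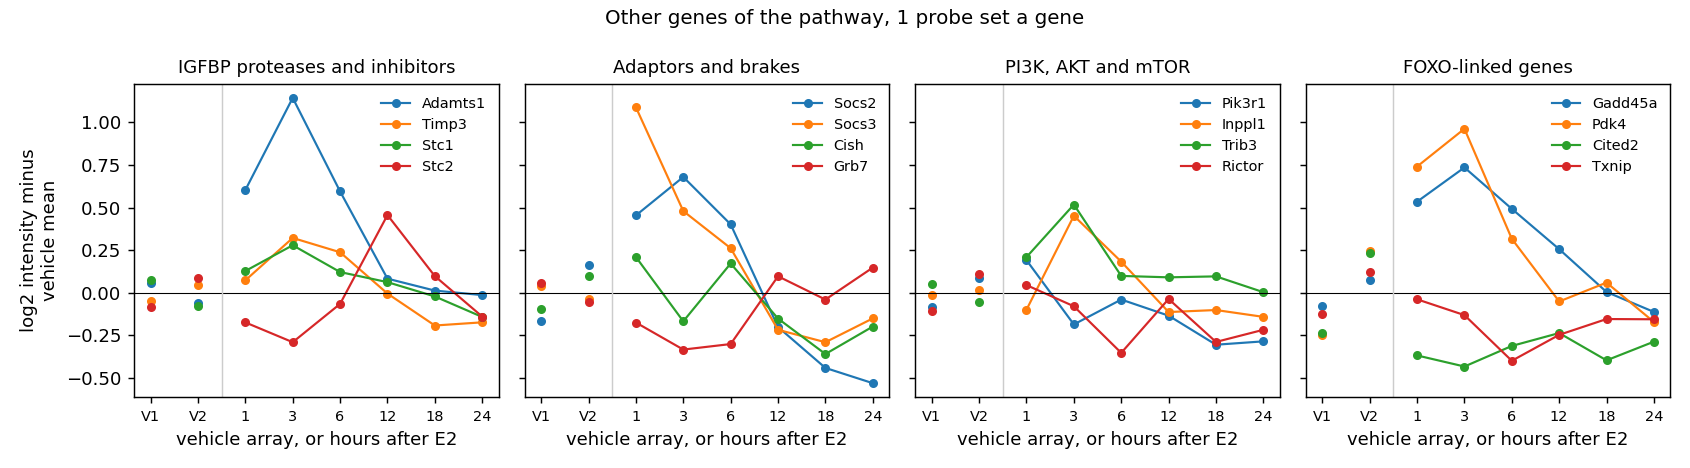
Log2 intensity minus the vehicle mean (vertical axis) on vehicle 1 and 2 (V1, V2) and over time after E2 (horizontal axis, hours, evenly spaced) for 4 genes from each of 4 pathway lists. Adamts1 and Pdk4 were highest at 3 h, Socs3 at 1 h, and Socs2 passed from 0.68 at 3 h to -0.53 at 24 h.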

How the data were processed

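Per the submitters' processing notes, GCOS 1.0 and RMA were used, with no role or order stated. The authors deposited linear intensity values for 45101 probe sets on 8 single-colour arrays, with nearly equal medians. Genome build and probe annotation were not given in the sources used here, and symbols came from the platform's annotation. Log2 was taken, 64 control probe sets were left out, and the 27022 probe sets whose mean reached the 40th percentile were fitted in limma 3.58.1 (R 4.3.3) as vehicle, early and late windows with 5 residual degrees of freedom, a variance trend and Benjamini-Hochberg adjustment over all of them, with calls below 0.05. Limma p-values are two-sided. The fit was also run on simulated data with an equal shift on all arrays of a window, where only median estimates were held to a limit. That run does not show how the fit handles change between the hours of a window. Members, lists and windows were chosen with earlier results of these data known. Named genes were all members and, per pathway list, up to 4 with the largest window difference plus those 1.5-fold from both vehicle arrays at a time. Of 862 genes with a range of at least 0.5, the 4 with the highest Pearson r to each of the 3 members of widest range were named. Alternatives were filters, normalization, probe set summaries, variance settings (robust with statmod 1.5.0), marker covariates, fold thresholds, a slope on log2 hours, 7 group means and single arrays left out.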

Additional observations from a re-analysis of the deposited data

Results flagged for a closer look

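Igfbp4 probe set 1421991_a_at lay above the vehicle mean on all 3 early arrays, by 0.03 to 0.09 on the log2 scale, and below it on all 3 late arrays, at -0.08 to -0.02. The difference of late from early arrays was -0.094 ± 0.0475 (SE, n = 3 against 3; limma adjusted p = 0.357), which did not pass the test.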

How the results depend on the processing

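The number of arrays limits every value; detection above background was not measured here, and Igfbp2 fell below the filter. No paired analysis was possible because each E2 time had 1 array and only the vehicle arrays carry numbers. Early against vehicle, the main count of 1 probe set (Krt10, a keratin gene, named after its value was seen) was 2 with no filter, 0 with the 60th percentile filter, 0 with 1 probe set a gene, 11, 3 and 35 with muscle, adipocyte and lymphocyte covariates, and 0 to 130 with an array left out. Late against vehicle it was 0, and 2 with the adipocyte covariate; the 6 lower members at an unadjusted p were 3 with 1 probe set a gene, 3 with probe sets averaged per gene, 0 and 3 with muscle and lymphocyte covariates, and 1 to 7 with an array left out. Late against early, the count of 84 was 23 with quantile normalization, 23 with probe set means, 10 with no trend, 1450, 164 and 32 with muscle, adipocyte and lymphocyte covariates, 16 with a slope on log2 hours, and 1 to 403 with an array left out; 1 member, Irs1, was called with the muscle covariate (-0.37). At single times, 314 probe sets became 83 at 2-fold, 1469 at a 25% difference, 161 with 1 probe set a gene and 488 to 702 against a single vehicle array, and members 4 at a 25% difference and 0 to 2 against a single vehicle array.

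Direction turned only for differences that had not passed the test. No member difference had passed it in the main fit, so for members this could not be otherwise. With the muscle covariate the early differences became 0.0023 (1419519_at), 0.064 (1434413_at), 0.063 (1437401_at) and 0.024 (1452014_a_at) for Igf1, 0.0072 and 0.00091 for Igfbp5, and 0.044 for Igfbp3 1458268_s_at. With an array left out, early values ran from -0.26 to 0.0059 for Igf1 1434413_at, -0.19 to 0.017 for Igfbp3 1458268_s_at and -0.13 to 0.0055 for Igfbp5 1422313_a_at. Late Irs1 was 0.015 with quantile normalization, 0.13 and 0.072 with muscle and lymphocyte covariates, and -0.10 to 0.077 with an array left out. Late against early, Igf1 1419519_at was 0.0037 with quantile normalization, 0.0036 with the lymphocyte covariate and -0.15 to 0.073 with an array left out. There Igfbp5 1422313_a_at was -0.017 with centred arrays, -0.019 and -0.0071 with muscle and adipocyte covariates, and -0.076 to 0.063 with an array left out, and Igfbp6 was -0.032 to 0.27. Causes were not tested. For the 15 other tested member probe sets, sign changed in 52 of 762 refitted values, with 0 called.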

Other observations

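Genes whose course over the 8 arrays was most like that of a member were named as the highest Pearson r among 862 genes, which is a description without a p. Nearest to Igfbp6 were Padi4, a peptidylarginine deiminase (r = 0.97), Il1r2, a decoy receptor for interleukin 1 (r = 0.97), Gpx3, the secreted glutathione peroxidase (r = 0.96), and Oxtr, the oxytocin receptor of myoepithelium (r = 0.94). Their log2 differences from the vehicle mean at 12 h were 0.71, 0.41, 0.77 and 0.38, where Igfbp6 stood at 0.56.

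Nearest to Igf1 were Ptpn4, a protein tyrosine phosphatase (r = 0.96), Fgg, the gamma chain of fibrinogen (r = 0.94), Gulp1 (r = 0.90) and Klhl2 (r = 0.90). Fgg was 0.17 above the vehicle mean at 1 h and lay at -0.57, -1.3, -1.24, -0.98 and -0.81 from 3 to 24 h, a wider course than that of Igf1. Nearest to Igfbp3 were Pmaip1, a proapoptotic gene (r = 0.95), Fam25c (r = 0.92), Ifi209 (r = 0.91) and Tent5c (r = 0.91), with Pmaip1 at -0.53 at 18 h, its lowest time, as for Igfbp3.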
